A study of Mus musculus with 8 samples.

Results

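The 10 genes followed here were measured in bulk RNA-seq libraries of endothelial cells (ECs) from mouse lung. The list held the simple keratins Krt7, Krt8, Krt18 and Krt19, the epithelial adhesion genes Epcam and Cdh1, the claudins Cldn3, Cldn4 and Cldn7, and Sfn. They were taken by symbol from the count table, and all 10 of the 10 were found among its 54532 genes. Several of these genes are also known to be raised in transitional alveolar epithelium, a state of alveolar repair. Wild-type C57BL/6J pups were kept from postnatal day 0 to day 14 at 21% O2 in room air (normoxia) or at 80% O2 (hyperoxia), a model of bronchopulmonary dysplasia. At day 14 lung cell suspensions were depleted of CD45-bead-bound leukocytes, and the cells bound by CD31-coated beads were collected as ECs. Each group held 4 libraries (normoxia 1 to 4 and hyperoxia 1 to 4), and all pups carried the wild-type genotype. The sources used here do not say how many pups went into a library, so p-values measure only the spread between these libraries. A bead isolate is enriched for ECs and can hold other lung cells.

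Simple keratins build the intermediate filaments of single-layered epithelia. A type II keratin (Krt7 or Krt8) pairs with a type I keratin (Krt18 or Krt19), and Krt8 with Krt18 is the common pair. Cdh1 (E-cadherin) forms adherens junctions between epithelial cells, Epcam is an epithelial surface adhesion protein that binds claudins, and claudins seal or tune tight junctions. Sfn is 14-3-3 sigma, an adaptor protein of epithelial cells that is induced by p53. ECs are known for another set: Cdh5 (VE-cadherin) and Cldn5 hold their junctions.

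The genes lie on 6 chromosomes of mouse build GRCm38. Krt7 (chromosome 15, 101411043 to 101430313), Krt8 (chromosome 15, 101996698 to 102004482) and Krt18 (chromosome 15, 102028180 to 102032027) belong to the keratin cluster on that chromosome, where 23697 bp separate Krt8 from Krt18. Krt19 (100140810 to 100148665) and Cldn7 (69964779 to 69967885) are on chromosome 11. Cldn3 (134986214 to 134987472) and Cldn4 (134945119 to 134946934) are neighbours on chromosome 5 with 39279 bp between them. Epcam is on chromosome 17 (87635979 to 87651106), Cdh1 on chromosome 8 (106603351 to 106670246) and Sfn on chromosome 4 (133600556 to 133602168). Cldn3, Cldn4 and Sfn each have 1 exon in the GENCODE M21 annotation. Exons of Krt7, Krt8 and Cldn3 overlap an antisense or noncoding gene on the opposite strand (Gm671, Gm36026 and Wbscr25), and these 3 had 5, 3 and 1 counts in total. A listed Krt8 pseudogene, Krt8-ps, had 1 count in total.

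RefSeq promoter windows (GRCm38.p6, 250 bases before to 50 after each start) were matched for 8 of the 10 genes. Stretches before the start are printed for 6 genes, 5′ to 3′ on the strand of the gene, because they belong to pairs of genes that are neighbours yet differed in size of change (Krt8 and Krt18, Cldn3 and Cldn4) and to the member that rose from the lowest tested level (Epcam) and the one that was not called (Sfn). Only bases outside the annotated gene are shown, so the stretch of Krt8 (chr15:102004483-102004592, minus strand) has 110 bases and that of Krt18 (chr15:102027966-102028179, plus strand) has 214. The others have 250 bases: Epcam (chr17:87635729-87635978, plus strand), Cldn3 (chr5:134985964-134986213, plus strand), Cldn4 (chr5:134946935-134947184, minus strand) and Sfn (chr4:133602169-133602418, minus strand). Capitals mark matches, on either strand, to 1 of 5 searched motifs.
Krt8: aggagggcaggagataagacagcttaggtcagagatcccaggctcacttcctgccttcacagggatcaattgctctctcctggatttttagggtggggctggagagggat
Krt18: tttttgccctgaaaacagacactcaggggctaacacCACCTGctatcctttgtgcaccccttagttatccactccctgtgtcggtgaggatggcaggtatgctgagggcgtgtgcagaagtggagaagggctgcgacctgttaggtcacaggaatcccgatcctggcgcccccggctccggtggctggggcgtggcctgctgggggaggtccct
Epcam: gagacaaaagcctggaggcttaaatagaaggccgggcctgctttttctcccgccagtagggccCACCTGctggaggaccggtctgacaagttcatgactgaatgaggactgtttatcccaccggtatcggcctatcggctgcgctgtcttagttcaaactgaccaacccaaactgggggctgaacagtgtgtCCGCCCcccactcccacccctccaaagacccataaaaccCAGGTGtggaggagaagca
Cldn3: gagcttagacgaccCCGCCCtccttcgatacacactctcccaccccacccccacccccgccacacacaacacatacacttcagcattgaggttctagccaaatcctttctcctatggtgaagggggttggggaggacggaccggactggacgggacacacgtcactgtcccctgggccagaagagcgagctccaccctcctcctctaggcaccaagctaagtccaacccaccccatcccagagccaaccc
Cldn4: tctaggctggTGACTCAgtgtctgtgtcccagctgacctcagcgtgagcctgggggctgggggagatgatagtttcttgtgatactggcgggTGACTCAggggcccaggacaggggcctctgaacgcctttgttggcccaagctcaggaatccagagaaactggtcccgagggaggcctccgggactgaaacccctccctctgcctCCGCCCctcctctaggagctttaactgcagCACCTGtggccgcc
Sfn: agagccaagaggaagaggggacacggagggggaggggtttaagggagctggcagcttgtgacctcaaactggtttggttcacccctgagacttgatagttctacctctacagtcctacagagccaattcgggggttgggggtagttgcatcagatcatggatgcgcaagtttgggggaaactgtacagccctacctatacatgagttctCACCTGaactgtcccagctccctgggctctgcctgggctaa

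The motifs were CACCTG, an E-box read by Zeb and Snail repressors; GGGCGG, a GC box; TGANTCA, the AP-1 element; CATTCC, the TEAD element; and AACCGGTT, the Grainyhead element. None of their matches overlap one another in the printed stretches. CACCTG was present in a 300-base window of all 8 members matched, and in 20.2% of all 32851 windows. Members were counted by gene with any window, and the Cldn7 window from 69964529 had 0 matches to CACCTG. In Krt8 its match lay 111 bases before the RefSeq start, inside the longer annotated gene and therefore not printed, and in Krt18 it lay 214 bases before the start. Epcam held 2 matches, 187 and 19 bases before the start, and Sfn held 1, at 41 bases before it. GGGCGG was present in 5 of the 8 members and in 35.7% of all windows. TGANTCA was found in 1 member, Cldn4, at 240 and 158 bases before the start, and in 7.81% of windows. CATTCC was found in 1 member, Cldn7 (14.7% of windows), and AACCGGTT in none (0.146% of windows). Members were few and chosen by name, so these shares are a description.

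Libraries held 16098086 to 18300730 counts. The EC identity of the isolates was checked on 10 endothelial markers, whose summed level was 16054 to 17046 CPM (counts scaled to 1e+06 per library) in normoxia and 15633 to 16513 CPM in hyperoxia. Hyperoxia 3 departed from the rest of its group in part of the genes called higher. Its level was below 50% of the mean of the other 3 in 267 of the 875 genes called higher in hyperoxia (30.5%), and the median over all genes tested was 99.8%. The mitochondrial share of counts was 0.864 to 1.05% in normoxia and 1.21 to 1.43% in hyperoxia, without overlap and with hyperoxia 3 the lowest of its group, and its part in the results was not tested. Results are given with and without hyperoxia 3. With fewer cells of a type or less RNA per cell, the same change in a bulk level would be seen, and these cannot be told apart.

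The first comparison asked whether the 10 genes differed between hyperoxia and normoxia. A gene was called at a Benjamini-Hochberg adjusted p under 0.05 in edgeR's quasi-likelihood test when its log2 fold change was also 1 or more in size. Of the 10 genes, 9 passed the filter on low counts, 8 were called higher, and none was called lower. Sfn was tested and not called, and Cldn4 was too low to be tested. Over all 15564 genes tested, 5.62% were called higher and 1.36% lower under the same rule, and 18.5% were higher at the adjusted p alone. The median log2 fold change of the 9 tested genes was 3.01, and the median over all genes was -0.00400. A member that passed the filter through its hyperoxia libraries had to differ, so the count is a description. The same holds for genes of the lists read below, so their counts and medians are descriptions too. Every hyperoxia library lay above every normoxia library in 7 of the 10 genes, an ordering that 17.8% of all genes tested showed. The exceptions were Krt18, Cldn7 and Cldn4. Without hyperoxia 3 the same 8 genes were called.

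**Figure D1:**
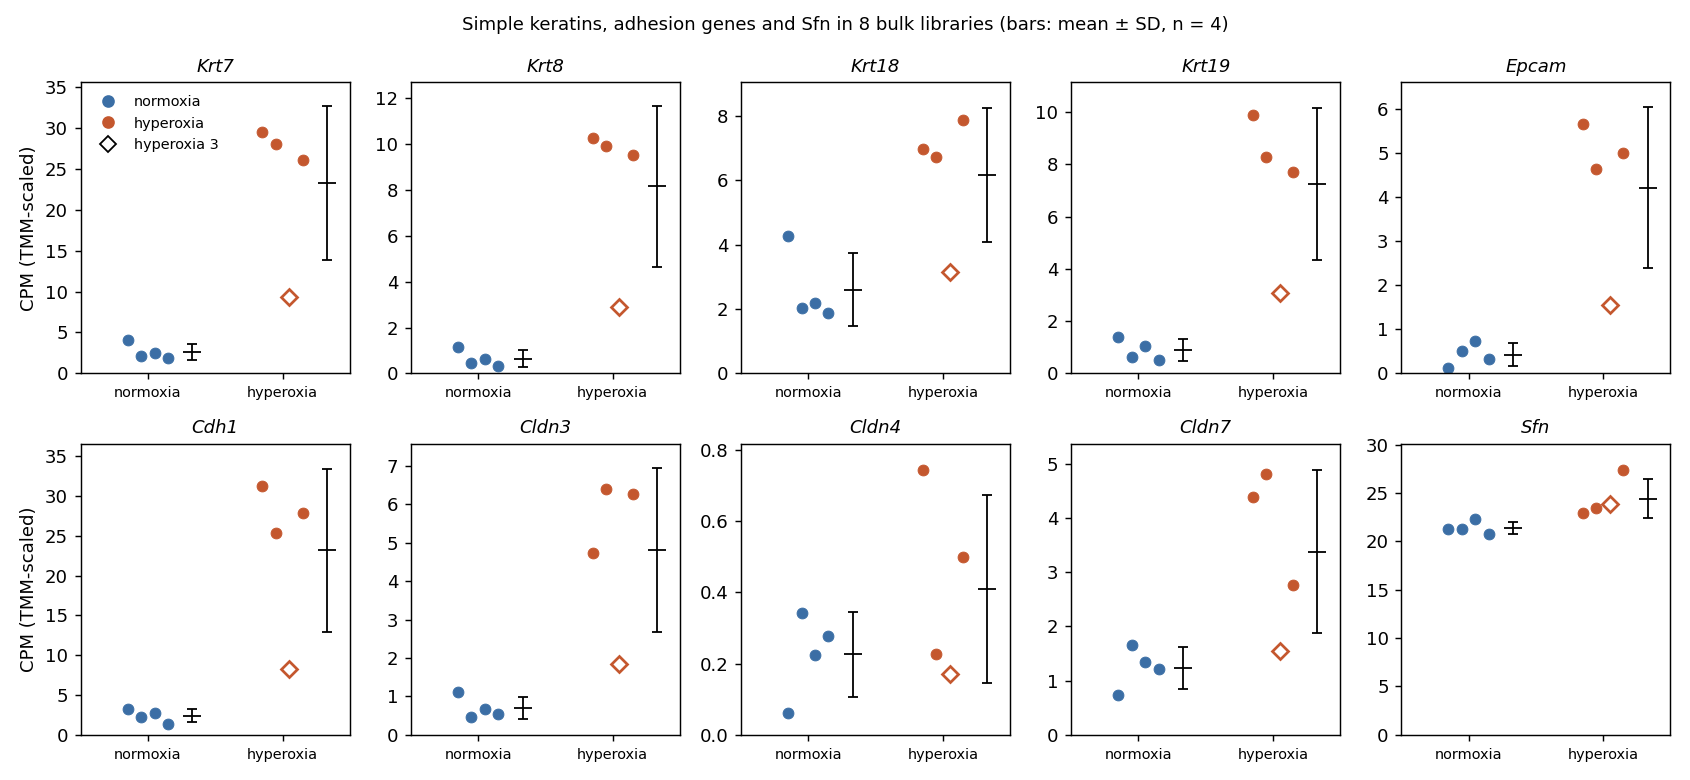
Level of each of the 10 genes (CPM, TMM-scaled, axis from 0) in the 4 normoxia (blue) and 4 hyperoxia (orange) libraries, with hyperoxia 3 as an open diamond and the mean ± SD beside the points. Hyperoxia 3 was the lowest library of its group in 9 of the 10 genes, and Sfn was the exception.

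Among the keratins, Krt8 changed most. This type II keratin had 1.16, 0.455, 0.615 and 0.331 CPM in normoxia 1 to 4 (19, 8, 11 and 6 counts) and 10.3, 9.91, 2.92 and 9.54 CPM in hyperoxia 1 to 4 (180, 175, 51 and 172 counts). The groups did not overlap, and hyperoxia 3 held 29.5% of the mean of the other 3. The mean rose from 0.641 ± 0.367 to 8.16 ± 3.51 CPM (SD, n = 4 each), a log2 fold change of 3.67 (SE 0.460, edgeR adjusted p = 0.000148). Without hyperoxia 3 it was 3.95 (edgeR adjusted p = 4.81e-06).

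Krt7, the other type II keratin, had 4.10, 2.11, 2.52 and 1.88 CPM in normoxia 1 to 4 and 29.5, 28.0, 9.27 and 26.1 CPM in hyperoxia 1 to 4. All hyperoxia libraries were higher, and normoxia 1 was the highest of its group, as it was for 6 of the 10 genes. The log2 fold change was 3.14 (SE 0.369, edgeR adjusted p = 9.8e-05), and 3.40 without hyperoxia 3 (edgeR adjusted p = 1.5e-06). Krt19, a type I keratin, had 1.41, 0.626, 1.06 and 0.497 CPM in normoxia and 9.88, 8.27, 3.09 and 7.71 CPM in hyperoxia. Its groups did not overlap either. It rose by 3.01 on the log2 scale (SE 0.399, edgeR adjusted p = 0.000218) and by 3.26 without hyperoxia 3 (edgeR adjusted p = 1.43e-05).

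Krt18, the partner of Krt8, rose less and its groups overlapped. It had 4.29, 2.05, 2.18 and 1.88 CPM in normoxia and 6.97, 6.74, 3.15 and 7.88 CPM in hyperoxia. Hyperoxia 3 lay below normoxia 1 and above the other 3 normoxia libraries. The log2 fold change was 1.26 (SE 0.325, 95% interval 0.54 to 1.97, edgeR adjusted p = 0.0117), and 1.47 without hyperoxia 3 (edgeR adjusted p = 0.00173).

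The adhesion genes Cdh1 and Epcam rose by like amounts from unlike levels. Cdh1, E-cadherin, had 3.25, 2.22, 2.80 and 1.33 CPM in normoxia and 31.3, 25.3, 8.30 and 27.8 CPM in hyperoxia. No hyperoxia library fell within the normoxia range, and hyperoxia 3 held 29.5% of the mean of the other 3. The log2 fold change was 3.28 (SE 0.402, edgeR adjusted p = 0.000130), and 3.56 without hyperoxia 3 (edgeR adjusted p = 1.42e-06). Epcam had 0.122, 0.512, 0.727 and 0.331 CPM in normoxia (2, 9, 13 and 6 counts) and 5.65, 4.64, 1.55 and 4.99 CPM in hyperoxia (99, 82, 27 and 90 counts). Its normoxia level rested on few counts, and in normoxia 1, which was the highest library for the keratins, it was the lowest. Epcam rose by 3.28 on the log2 scale (SE 0.485, edgeR adjusted p = 0.000441), and by 3.55 without hyperoxia 3 (edgeR adjusted p = 3.67e-05).

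The claudins divided into a strong, a moderate and an unresolved change. Cldn3 had 1.10, 0.455, 0.671 and 0.552 CPM in normoxia and 4.74, 6.40, 1.83 and 6.27 CPM in hyperoxia, without overlap. Its log2 fold change was 2.79 (SE 0.417, edgeR adjusted p = 0.000472), and 3.06 without hyperoxia 3 (edgeR adjusted p = 2.04e-05). Cldn7 had 0.735, 1.65, 1.34 and 1.22 CPM in normoxia and 4.40, 4.81, 1.55 and 2.77 CPM in hyperoxia. Hyperoxia 3 lay just below normoxia 2, so the groups overlapped by that library. Cldn7 rose by 1.44 on the log2 scale (SE 0.365, 95% interval 0.64 to 2.25, edgeR adjusted p = 0.0105), and by 1.68 without hyperoxia 3 (edgeR adjusted p = 0.00144).

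Cldn4, the neighbour of Cldn3, stayed near the limit of detection, with 1, 6, 4 and 5 counts in normoxia and 13, 4, 3 and 9 counts in hyperoxia. Hyperoxia 2 and 3 lay within the normoxia range. The means were 0.226 ± 0.120 and 0.410 ± 0.264 CPM (SD, n = 4 each; exact two-sided permutation p = 0.286, smallest possible 0.0286), and a difference was not detectable at this depth.

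Sfn differed from the other members in level and in pattern. It had 21.2, 21.3, 22.3 and 20.8 CPM in normoxia and 22.9, 23.4, 23.9 and 27.3 CPM in hyperoxia. All hyperoxia libraries lay above the normoxia range, by a narrow margin, and hyperoxia 3 was at 97.2% of the mean of the other 3. The mean went from 21.4 ± 0.628 to 24.4 ± 2.01 CPM (SD, n = 4 each). The log2 fold change of 0.19 (SE 0.0719, 95% interval 0.03 to 0.35) missed the threshold with an edgeR adjusted p of 0.0626, and without hyperoxia 3 it was 0.20 (edgeR adjusted p = 0.0891). In limma on log2(FPKM + 0.1) its adjusted p was 0.0372. The coefficient of variation of Sfn was 2.94% in normoxia and 8.25% in hyperoxia, and for Krt8 these values were 57.2% and 43.0%.

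**Figure D2:**
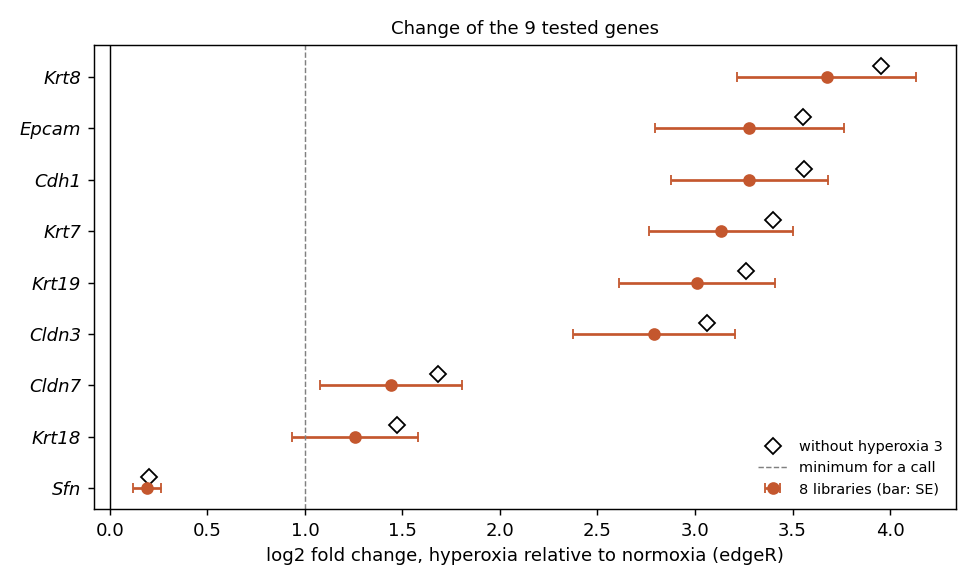
Log2 fold change of the 9 tested genes, hyperoxia relative to normoxia, from edgeR with all 8 libraries (circle, bar for the SE) and without hyperoxia 3 (diamond), with a dashed line at the minimum for a call. Krt18 (1.26) and Cldn7 (1.44) lie apart from the 6 genes between 2.79 and 3.67, and Sfn is at 0.19.

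Levels of different genes were compared per length, on the deposited FPKM (fragments per kilobase, also scaled for depth). In normoxia Sfn was the highest at 13.2 ± 0.396 FPKM, and Krt18 followed at 1.79 ± 0.787 FPKM (SD, n = 4). Both lay above the next gene without overlap between libraries. The other 8 genes, from Cldn7 at 0.629 ± 0.192 FPKM down to Cldn4 at 0.123 ± 0.0650 FPKM, each overlapped the next in the order. In hyperoxia Sfn was again the highest at 15.0 ± 1.23 FPKM. Cdh1 (5.04 ± 2.21 FPKM), Krt18 (4.28 ± 1.43), Krt8 (4.14 ± 1.78), Krt19 (3.88 ± 1.56), Cldn3 (3.80 ± 1.68) and Krt7 (3.27 ± 1.32) followed, each overlapping the next in its range over libraries. Hyperoxia 3 was the lowest library for each of these 6 genes and widened the ranges. Within each hyperoxia library Cdh1 was above Krt8, and Krt8 above Krt7. Epcam (2.05 ± 0.886 FPKM) and Cldn7 (1.73 ± 0.770) came next, and Cldn4 was below all others at 0.224 ± 0.144 FPKM. The length behind these values merges all exons of a gene. For Krt7 it was 7049 bases, and its longest protein-coding transcript has 4094 bases. Rescaled to that transcript, Krt7 had 5.63 ± 2.27 FPKM in hyperoxia and ranked 2 of 10.

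**Figure D3:**
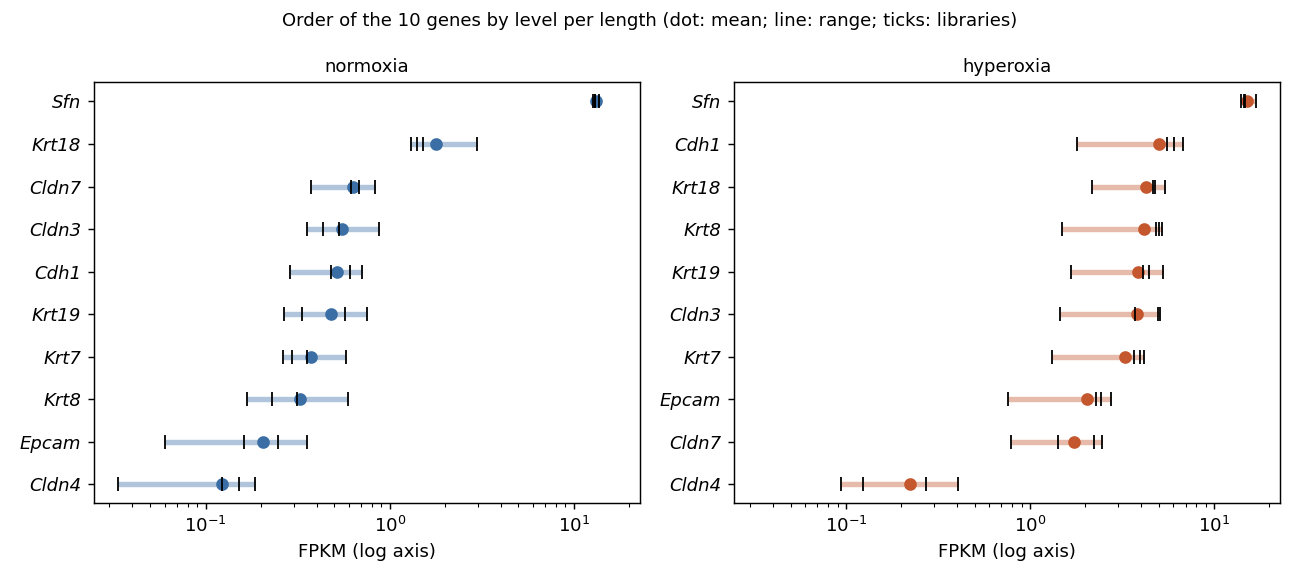
Level per length (FPKM, log axis) of the 10 genes in each group, ordered by the mean, with dots for means, lines for ranges and ticks for libraries. Sfn stands above all others in both groups, at 13.2 and 15.0 FPKM, and the 6 genes behind it in hyperoxia have overlapping ranges.

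Ratios between genes of the same library do not depend on the scaling of libraries and show whether members rose by unequal amounts. In all, 13 log2 ratios were compared between the groups with an exact two-sided permutation test each and Benjamini-Hochberg adjustment over the 13. The ratio of Krt8 to Krt18, in counts per kilobase, was 0.199, 0.163, 0.207 and 0.130 in normoxia 1 to 4 and 1.08, 1.08, 0.681 and 0.889 in hyperoxia 1 to 4. The Krt18 level per length was above that of its partner in all normoxia libraries, and the 2 levels lay closer together in hyperoxia. The log2 ratio differed by 2.42 (exact permutation p = 0.0286, the smallest possible, adjusted 0.0413). Leaving out each library in turn gave 2.28 to 2.56.

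The type II keratin Krt8 also gained on Krt7 and Krt19, by less. The ratio of Krt7 to Krt8 was 0.980 to 1.57 in normoxia and 0.759 to 0.882 in hyperoxia, a log2 difference of -0.61, and that of Krt19 to Krt8 was 1.28 to 1.82 against 0.853 to 1.12, a log2 difference of -0.66 (exact permutation p = 0.0286 and adjusted 0.0413 for each). Among the adhesion genes, the ratio of Cdh1 to Epcam was 2.40 to 2.49 in hyperoxia. In normoxia it was 1.72 to 1.93 in libraries 2 to 4 and 11.8 in normoxia 1, where Epcam had 2 counts. The log2 difference was -0.24 with an SD of 1.36 in normoxia (exact permutation p = 1), and without normoxia 1 it turned to 0.44. The ratio of Krt8 to Epcam showed the same split, at 0.882 to 1.04 in normoxia 2 to 4, 9.90 in normoxia 1 and 1.89 to 2.22 in hyperoxia (log2 difference 0.24, exact permutation p = 0.914). Without normoxia 1 this difference was 1.09, and leaving out each of the other libraries gave -0.07 to 0.27.

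Cldn7 and Sfn fell back against Epcam. Cldn7 to Epcam went from 1.93 to 6.28 in normoxia to 0.582 to 1.09 in hyperoxia (log2 difference -2.05), and Sfn to Epcam from 38.7 to 219 in normoxia to 5.12 to 19.5 in hyperoxia (log2 difference -3.24; exact permutation p = 0.0286 and adjusted 0.0413 for each). The ratio of Cldn4 to Cldn3 was 0.0385 to 0.520 in normoxia and 0.0245 to 0.109 in hyperoxia, with overlap (log2 difference -1.85, exact permutation p = 0.114, adjusted 0.148). The Cldn4 counts behind it were 1 to 13.

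**Figure D4:**
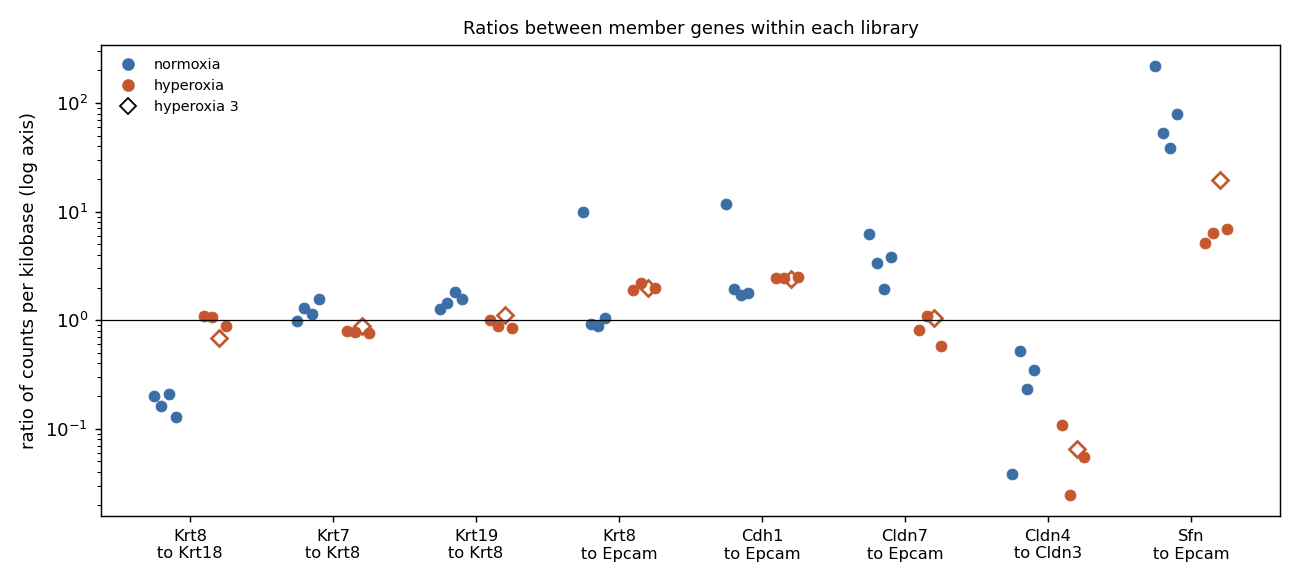
Ratios between member genes in counts per kilobase (log axis) in each normoxia (blue) and hyperoxia (orange) library, with hyperoxia 3 as an open diamond. Krt8 to Krt18 separates the groups (0.130 to 0.207 against 0.681 to 1.08), and normoxia 1 lies apart in the ratios to Epcam.

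Markers of alveolar epithelium moved in the same libraries. Alveolar type 2 (AT2) cells make surfactant, and type 1 (AT1) cells are the thin gas-exchange cells. Of 14 AT2 markers, all tested, 14 were higher at the adjusted p and 12 were called higher, with a median log2 fold change of 2.80. Their summed level was 275 to 388 CPM in normoxia, 2227 to 2526 CPM in 3 hyperoxia libraries and 856 CPM in hyperoxia 3 (35.4% of the mean of the other 3). Sftpc, surfactant protein C, rose from 106 ± 31.1 to 1121 ± 476 CPM (SD, n = 4 each; log2 fold change 3.40, SE 0.361, edgeR adjusted p = 4.88e-05). Of 15 AT1 markers, 14 were tested, 13 were higher at the adjusted p and 12 were called higher, with a median of 2.53. Their sum was 938 to 1338 CPM in normoxia and 1393 to 2151 CPM in hyperoxia. Ager, a membrane receptor abundant in AT1 cells, rose from 25.4 ± 3.90 to 153 ± 62.9 CPM (log2 fold change 2.59, SE 0.312, edgeR adjusted p = 0.000114). None of the 10 endothelial markers was called, but at the adjusted p alone 3 were higher and 3 were lower. The largest of these changes in each direction, named after their values were seen, were in the receptor gene Tek, which fell from 1182 ± 68.2 to 682 ± 49.8 CPM (log2 fold change -0.79, edgeR adjusted p = 6.35e-06), and in Emcn, which rose from 262 ± 16.4 to 350 ± 11.6 CPM (log2 fold change 0.42, edgeR adjusted p = 0.000159). The part of these markers in the change of the keratins and adhesion genes was not tested.

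Krt8 and Epcam were also set against the marker sums. Krt8 per summed AT2 level was 0.00121 to 0.00300 in normoxia and 0.00341 to 0.00428 in hyperoxia, and the log2 difference was 1.14 (exact permutation p = 0.0286, adjusted 0.0413). For Epcam the same ratio was 0.000316 to 0.00226 against 0.00181 to 0.00224, with overlap (log2 difference 0.89, exact permutation p = 0.171, adjusted 0.202). This difference was 0.30 without normoxia 1, and 0.85 to 1.24 without each of the other libraries. In normoxia the AT2 sum rested mostly on Abca3 (110 CPM) and Sftpc (106 CPM). Abca3 rose by only 0.39 on the log2 scale, to 145 CPM, which damped the rise of the sum. Sftpc alone rose by 3.40, and Krt8 by 3.67. The mean of log2 AT2 levels gave 1.29 for Krt8 (exact permutation p = 0.0286) and 1.05 for Epcam (exact permutation p = 0.0857). Against the AT1 sum, Krt8 differed by 2.98 and Epcam by 2.74 on the log2 scale (exact permutation p = 0.0286 and adjusted 0.0413 for each). The AT1 sum is dominated by Emp2, which was not called (951 CPM in normoxia, 1112 CPM in hyperoxia). With the mean of log2 levels in place of the sum, the differences were 1.42 for Krt8 (exact permutation p = 0.0286) and 1.18 for Epcam (exact permutation p = 0.0571).

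**Figure D5:**
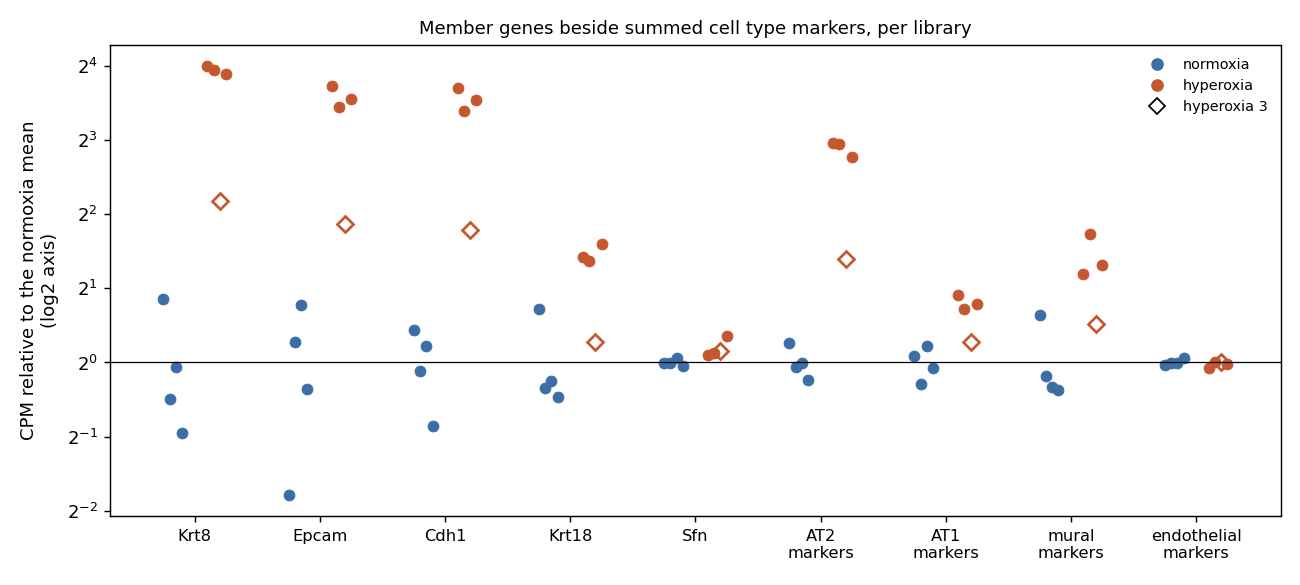
Level of 5 member genes and of 4 summed marker lists in each library, relative to the normoxia mean (log2 axis), in normoxia (blue) and hyperoxia (orange), with hyperoxia 3 as an open diamond. Hyperoxia 3 sits between the groups for Krt8, Epcam, Cdh1 and the AT2 sum (856 CPM against at least 2227 CPM), and the endothelial sum is level across all libraries.

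Markers of other cells that could pass the beads were read in the same fit. Of 13 airway epithelial markers, 4 were tested and none was called, and Bpifa1, Ccdc113 and the basal keratin Krt5 had no count in any library. The airway sum was 60.7 to 82.1 CPM in normoxia and 80.8 to 111 CPM in hyperoxia. Most of it was Tppp3 (means of 65.6 and 92.7 CPM). At the adjusted p alone Tppp3 was higher (edgeR adjusted p = 0.00784) and Scgb3a1 lower (edgeR adjusted p = 0.0454). Of 8 mesothelial markers, 3 were tested, and Msln was called higher (0.266 ± 0.254 to 1.47 ± 0.599 CPM, log2 fold change 2.47, SE 0.599, edgeR adjusted p = 0.00838). The mesothelial sum was 2.43 to 5.94 CPM in normoxia and 4.98 to 9.40 CPM in hyperoxia, with overlap. Of 9 tested mural markers 6 were called higher, and their sum was 26.6 to 53.3 CPM against 49.3 to 114 CPM. Of 9 tested fibroblast markers 4 were called higher, with a sum of 187 to 378 CPM against 251 to 659 CPM. Of 12 leukocyte markers 2 were called higher, 9 did not pass the adjusted p, and Cd68 was lower at the adjusted p alone. The leukocyte sum was 201 to 438 CPM against 270 to 654 CPM. Lyz2, a called gene, was its largest part and rose from a mean of 77.3 to 225 CPM, so the sum does not describe the other markers. Hyperoxia 3 had the lowest sum of its group in each of these lists, and their part in the result was not tested.

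Other genes of epithelial junctions gave a mixed picture. Of 28 genes of tight junctions, adherens junctions and desmosomes, 19 were tested, 9 were called higher and none lower, and at the adjusted p alone 11 were higher and 3 lower. Pkp2, a desmosomal plaque protein, rose from 0.161 ± 0.108 to 2.71 ± 1.34 CPM (log2 fold change 4.04, SE 0.569, edgeR adjusted p = 0.000321), and Cgn, the tight junction protein cingulin, from 0.598 ± 0.328 to 5.59 ± 2.88 CPM (log2 fold change 3.23, SE 0.532, edgeR adjusted p = 0.000878). Pkp2, at most 0.306 CPM in normoxia, passed the filter only through its hyperoxia libraries. The catenins that bind cadherins of many cell types moved little. Ctnnb1 had 1167 ± 45.3 and 1207 ± 40.0 CPM (edgeR adjusted p = 0.452), Ctnna1 fell by 0.15 on the log2 scale (edgeR adjusted p = 0.0143), and Jup rose by 0.15 (edgeR adjusted p = 0.0222).

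Genes of the epithelial surface and of polarity formed the next list. Of 24, 21 were tested, 14 were called higher and none lower, with a median log2 fold change of 2.02. Hyperoxia 3 held 88.4% of the mean of the other 3 in the summed level of this list and 45.8% in that of the members. The member sum includes Sfn, which was at 97.2%, and the 8 members called were each at 29.5 to 43.8%. The list sum is mostly Itga3 and Cd24a (means of 599 and 272 CPM in hyperoxia), so it does not describe the low genes. Epn3, an epithelial epsin, rose from 0.460 ± 0.133 to 5.98 ± 2.23 CPM (log2 fold change 3.68, SE 0.370, edgeR adjusted p = 3.31e-05), and the myosin Myo5c from 0.815 ± 0.415 to 9.85 ± 3.74 CPM (log2 fold change 3.60, SE 0.395, edgeR adjusted p = 5.96e-05). The more abundant integrin chains rose less: Itgb4 from 36.1 ± 7.38 to 77.6 ± 13.1 CPM (log2 fold change 1.11, edgeR adjusted p = 0.000262) and Itga3 from 301 ± 9.16 to 599 ± 31.2 CPM (log2 fold change 0.99, edgeR adjusted p = 3.06e-07). In hyperoxia 3 these 2 chains stood at 83.7 and 585 CPM, within the range of the other hyperoxia libraries. Epn3 and Myo5c had 2.75 and 4.35 CPM there, the lowest of their group.

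Regulators of epithelial genes were read from lists of activators and repressors. Of 18 epithelial transcription and splicing factors, 12 were tested, 8 were called higher and none lower, with a median log2 fold change of 1.47. Some of these, such as Foxa1 and Esrp1 (at most 0.228 and 0.429 CPM in normoxia), passed the filter only through their hyperoxia libraries. They could be tested only because they were higher there, so the count and median are a description. The lung epithelial factor Nkx2-1 rose from 1.36 ± 0.575 to 12.5 ± 5.25 CPM (log2 fold change 3.20, SE 0.400, edgeR adjusted p = 0.000145), the splicing factor Esrp1 from 0.178 ± 0.193 to 2.06 ± 0.647 CPM (log2 fold change 3.52, SE 0.569, edgeR adjusted p = 0.000772), and the forkhead factor Foxa1 from 0.155 ± 0.0822 to 1.92 ± 1.01 CPM (log2 fold change 3.56, SE 0.559, edgeR adjusted p = 0.000653). Of 9 repressors, 6 were tested, none was called, and at the adjusted p alone 1 was lower. That gene, Zeb2, named after its values were seen, fell from 121 ± 11.6 to 83.8 ± 2.23 CPM (log2 fold change -0.53, SE 0.0655, edgeR adjusted p = 0.000143), without overlap between the groups. Zeb1 had 238 ± 9.31 and 230 ± 10.3 CPM (log2 fold change -0.05, edgeR adjusted p = 0.475), and Snai1 had 12.0 ± 1.74 and 12.2 ± 0.700 CPM (log2 fold change 0.02, edgeR adjusted p = 0.887).

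Other genes of the keratin, claudin and cadherin families were read from the same fit. Of the 50 other keratin genes, 34 had no count in any library and 3 were tested. Krt80, which lies 40880 bp from Krt7, was called higher, from 99.9 ± 16.1 to 204 ± 10.5 CPM (log2 fold change 1.03, SE 0.0996, edgeR adjusted p = 2.48e-05). Its hyperoxia 3 level of 195 CPM was the lowest of a narrow group range (195 to 216 CPM). Krt10 and Krt222 did not pass the test (edgeR adjusted p = 0.321 and 0.785). Of the 22 other claudins, 6 were tested. Cldn18, the claudin of alveolar epithelium, rose from 5.16 ± 1.44 to 62.7 ± 27.9 CPM (log2 fold change 3.61, SE 0.399, edgeR adjusted p = 6.31e-05), with 21.1 CPM in hyperoxia 3. Cldn19 fell from 3.61 ± 1.23 to 1.63 ± 0.579 CPM (log2 fold change -1.14, SE 0.306, edgeR adjusted p = 0.0139). The endothelial Cldn5, at 1447 FPKM in normoxia and 1692 FPKM in hyperoxia, rose by 0.22 on the log2 scale (edgeR adjusted p = 0.00643).

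Of the 22 other cadherins, 10 were tested and 2 were called, both higher. Cdh16 rose from 0.214 ± 0.0204 to 2.44 ± 1.17 CPM (log2 fold change 3.47, SE 0.483, edgeR adjusted p = 0.000296), and Cdh2, N-cadherin, from 9.32 ± 0.574 to 19.7 ± 2.26 CPM (log2 fold change 1.08, SE 0.102, edgeR adjusted p = 2.18e-05). At its normoxia level Cdh16 passed the filter only through its hyperoxia libraries. Cdh5 did not pass the test (4121 ± 175 and 4035 ± 140 CPM, log2 fold change -0.03, edgeR adjusted p = 0.658). Per length, Cdh1 stood at 0.000280 to 0.000754 of Cdh5 in normoxia and at 0.00184 to 0.00742 in hyperoxia, and the log2 ratio differed by 3.22 (exact permutation p = 0.0286, adjusted 0.0413). Of the other 6 genes of the 14-3-3 family none was called, and Ywhaz, the highest in CPM, rose by 0.13 on the log2 scale (edgeR adjusted p = 0.0304).

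The last list held 24 other genes of transitional alveolar epithelium. Of these, 19 were tested, 9 were called higher and 1 lower, with a median log2 fold change of 0.90. Cdkn1a, the cell cycle inhibitor p21 and a p53 target, rose from 168 ± 25.2 to 909 ± 57.1 CPM (log2 fold change 2.44, SE 0.0998, edgeR adjusted p = 8.44e-08), and the stress cytokine gene Gdf15 from 6.18 ± 0.886 to 69.9 ± 7.76 CPM (log2 fold change 3.50, SE 0.111, edgeR adjusted p = 2.84e-08). In hyperoxia 3 these had 833 and 61.7 CPM, the lowest of narrow group ranges (833 to 963 and 61.7 to 77.6 CPM). The list sum in hyperoxia 3 was 90.5% of the mean of the other 3, against 29.5 to 43.8% in each of the 8 members called. Hbegf, a growth factor gene named as the only one of the list called lower, fell from 85.6 ± 12.1 to 31.4 ± 1.62 CPM (log2 fold change -1.45, SE 0.0954, edgeR adjusted p = 1.88e-06).

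The nearest protein-coding genes on each side of the members were read from the same fit. Of 16 such genes, 11 were tested, 8 had an adjusted p under 0.05 and 1, Krt80, was called (35.6% and 6.98% of all genes tested). Calm2, a neighbour of Epcam, was lower in hyperoxia, with a log2 fold change of -0.37 (edgeR adjusted p = 0.000128). Elp5, 336 bp from Cldn7, had a log2 fold change of 0.23 (edgeR adjusted p = 0.0111), and Eif4b, next to Krt18, of -0.21 (edgeR adjusted p = 0.00198). The neighbours of Cdh1, Sfn, Cldn3 and Cldn4 other than members (Gm10073, Tango6, Gpn2, Zdhhc18, Abhd11 and Mettl27) lay between -0.17 and 0.38 on the log2 scale.

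To find the genes most like the members across the 8 libraries, centred log2 CPM profiles of 12662 protein-coding genes were compared by the root mean square (RMS) difference, as a description with no test. Among the closest to Krt8 were Sftpc (RMS 0.176), Myh14 (0.189), Matn4 (0.197) and Slc6a14 (0.211), with log2 fold changes of 3.33 to 4.03 and hyperoxia 3 at 24.5 to 30.9% of the mean of the other 3. Krt7 ranked 10, Cdh1 ranked 11 and Krt19 ranked 28 in likeness to Krt8, whereas its partner Krt18 ranked 378. Closest to Epcam were Tmem30b (RMS 0.0887), Prr15l (0.195), Rtkn2 (0.319), Muc1 (0.384) and S100g (0.392). Sfn ranked 3528 of 12662 in likeness to Krt8 and 3367 in likeness to Epcam. Of the genes nearest in pattern, Sftpc and Muc1 stand in the AT2 list and Rtkn2 in the AT1 list.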

How the data were processed

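Per the labels, the authors aligned reads to mm10 with HISAT2 2.0.5 and counted genes with featureCounts 1.5.0-p3 (submitters' processing notes); strand and multi-mapping settings are not given in the sources used here. They deposited whole-number counts and FPKM per gene for 8 libraries, and the study used DESeq2. Libraries were grouped by sample title. For the counts, edgeR 4.0.16 (R 4.3.3) gave quasi-likelihood tests (TMM, filterByExpr, group as the only term, all 8 libraries), which kept 15564 of 54532 genes. CPM are counts scaled to a TMM-adjusted library of 1e+06. SE follow from the F statistic. Likeness used log2 CPM with a prior count of 2 and genes of at least 1 CPM on average. Depth was 16098086 to 18300730 counts, and few counts limit Epcam and Cldn4. Coordinates matched GENCODE M21 (GRCm38) for 98.3% of identifiers found there. Promoters come from RefSeq (GRCm38.p6).

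The members and gene lists were chosen with earlier results of these data known. The genes named are the members, in each list the 3 tested genes with the highest FPKM and the 2 with the largest called change, the nearest tested neighbours, the 5 most alike in pattern to Krt8 and to Epcam, genes overlapping a member, and Pecam1, Cdh5, Cldn5, Sftpc, Ager and Msln as marker checks; some genes that this rule names are not reported here. The test was checked on simulated counts of 15564 genes: of 100 genes changed by 1.5 on the log2 scale 90 were called, of 100 changed by 3 all 100, and 4 unchanged genes were called. Alternatives were other normalizations, filters, tools (DESeq2 1.42.0, limma 3.58.1), a replicate block and leaving out each library.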

Additional observations from a re-analysis of the deposited data

Results flagged for a closer look

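Values were flagged where, in a group of 4 libraries, the gap of the extreme library to its nearest neighbour exceeded Dixon's critical share of 0.829 of the group's range. This was checked in 62 groups of values, 9 were flagged, and chance alone gives about 5% of groups, or 3.1. Hyperoxia 3 was flagged as low for Krt7 (9.27 CPM) and Krt8 (2.92 CPM). It was also the flagged library in the ratio of Sfn to Epcam, at 19.5 against 5.12 to 6.93 in the other 3, and in the ratios to the summed AT1 level, at 0.00111 for Epcam and 0.00210 for Krt8. Normoxia 1 was flagged as high for Krt18 (4.29 CPM), for the sum of mural markers (53.3 CPM), and for the ratios of Krt8 to Epcam (9.90) and of Cdh1 to Epcam (11.8), which rest on an Epcam count of 2 in that library. No cause was tested for these values.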

How the results depend on the processing

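All 8 member calls kept their direction and side of the adjusted p threshold under every alternative run, and the number of members called higher was 6 with limma on log2(FPKM + 1) and 8 under each of the others. Over the alternatives the log2 fold change of Krt8 was 1.88 to 4.11, of Krt18 0.90 to 1.60 and of Cldn7 0.70 to 1.68, with the lowest values on the log2(FPKM + 1) scale, which understates changes of low genes. Only Sfn changed its side: its adjusted p was 0.0372 and 0.0382 with limma on log2(FPKM + 0.1) and log2(FPKM + 1), with a range of 0.0372 to 0.184 over all alternatives. Over all genes, 1087 calls (875 higher, 212 lower) became 5535 (2875 and 2660) by adjusted p alone and 330 (286 and 44) with limma on log2(FPKM + 1), and 140 genes were lower among protein-coding genes alone. DESeq2 without a prior filter called 1273 genes, 1050 of them shared. Leaving out 1 library gave 1011 to 1287 calls in all (821 to 1024 higher, 177 to 263 lower), 8 members called higher and 0 called lower each time. The replicate numbers do not pair the libraries (correlations of the deviations of same-numbered libraries 0.12, 0.036, -0.13 and -0.14, and 1 of 8 libraries correlated best with its own number), and the fit with the replicate block called 1057 genes (863 higher, 194 lower) and 8 members. The rescaling of levels to the longest protein-coding transcript and the count of calls without hyperoxia 3 were chosen after seeing the data; the rescaling took Krt7 to 0.643 and 5.63 FPKM and Cldn7 to 0.917 and 2.52 FPKM in normoxia and hyperoxia. When normoxia 1 was left out, the log2 difference of Cdh1 to Epcam went from -0.24 to 0.44, of Krt8 to Epcam from 0.24 to 1.09 and of Epcam to the AT2 sum from 0.89 to 0.30. Depth limits Cldn4, with 1 to 13 counts a library, and the normoxia level of Epcam, with 2 to 13.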

Other observations

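Several genes of the marker lists add to the picture of the isolates. Among AT2 genes, the surfactant protein gene Sftpb rose from 21.2 ± 4.60 to 225 ± 95.0 CPM (SD, n = 4 each; log2 fold change 3.41, edgeR adjusted p = 3.83e-05), and among AT1 genes the water channel gene Aqp5 rose from 1.58 ± 0.676 to 21.4 ± 9.93 CPM (log2 fold change 3.76, edgeR adjusted p = 0.000142). Hopx, an AT1 gene with a level of 42.2 ± 3.77 CPM in normoxia, rose by 0.63 on the log2 scale (edgeR adjusted p = 0.00245). Among mural genes Acta2, smooth muscle actin, rose from 2.57 ± 1.08 to 10.7 ± 2.63 CPM (log2 fold change 2.06, edgeR adjusted p = 0.000276). In the leukocyte list, where 9 of 12 genes did not pass the adjusted p, Lyz2 rose from 77.3 ± 36.4 to 225 ± 90.1 CPM (log2 fold change 1.54, edgeR adjusted p = 0.00748), with overlap between the groups. Cd68 fell from 40.8 ± 4.64 to 25.7 ± 3.02 CPM (log2 fold change -0.67, edgeR adjusted p = 0.000502), and Ptprc had 38.4 and 38.3 CPM. Which cells held the Lyz2 RNA was not tested.

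A keratin outside the member list, Krt23, chosen after its values were seen, was too low to be tested and had 0.0597 CPM in normoxia and 1.13 CPM in hyperoxia on average, from 84 counts in total.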
